A study of Homo sapiens with 20 samples.

Results

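The genes described here encode the α and β subunits of the integrins and the α, β and γ chains of the laminins. They were chosen by symbol, as the rows named ITGA, ITGB, LAMA, LAMB or LAMC with a subunit number or letter, where 50 or more counts were summed over all 20 libraries. This gave 33 genes among 36 rows with such a symbol, out of 50775 gene rows, 31339 of which held a count. The 3 rows below the limit were ITGAM with 37 counts, LAMB4 with 9 and ITGA8 with 5, and the members nearest above it were ITGA2B with 52 counts and LAMC3 with 65. A filter on low counts kept 32 of the 33 genes among 16698 tested genes, and ITGA2B was not tested.

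Integrins are receptors made of 1 α and 1 β subunit that cross the cell membrane and tie the extracellular matrix to the actin or keratin skeleton. ITGA3, ITGA6 and ITGA7 encode subunits for laminin, ITGA1, ITGA2, ITGA10 and ITGA11 subunits for collagen, and ITGA5 and ITGAV subunits that read the RGD sequence of fibronectin and vitronectin. ITGB1 encodes the β subunit shared by most of these receptors, while ITGB4 pairs with ITGA6 in hemidesmosomes. Laminins, the ligands of the first group, are cross-shaped trimers of 1 α, 1 β and 1 γ chain and form the sheet of the basement membrane. MTOR is a kinase that couples nutrients and growth factors to growth, and adhesion through integrins is 1 of the inputs to the kinases that act above it.

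RNA was sequenced from 5 established human cancer cell lines, each untreated or given torkinib (PP242), which blocks the MTOR kinase at its ATP site, with 2 libraries in each of the 10 groups. The lines were 94T778 (well differentiated liposarcoma), A375 and SKMEL28 (melanoma) and SKBR3 and AU565 (breast cancer). Torkinib was given for 72 h at 10 µM to 94T778, at 4 µM to A375, SKMEL28 and AU565 and at 0.8 µM to SKBR3, and no time is given for the untreated cells. Per the labels, the doses were picked so that cells stopped cycling but stayed viable, and the series asks what MTOR inhibition does to DNA repair genes. Line and dose cannot be told apart in a difference between lines, except among A375, SKMEL28 and AU565. The medium was RPMI for 94T778, SKBR3 and AU565, DMEM for A375 and MEM for SKMEL28, so A375 and SKMEL28 each had a medium of their own. Each line is 1 established culture and stands for itself, not for its cancer. Separate cultures per replicate are not stated, and a p-value then reflects library-to-library spread, part of which may be technical.

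Libraries held 4040023 to 9737903 counted reads. Markers fitted the labels of SKMEL28, 94T778 and the breast lines: melanocyte genes reached 8117 and 7963 CPM (a gene's counts relative to the size of its library) in SKMEL28 without drug, 12q amplicon genes 12275 and 12399 CPM in 94T778 and breast genes at least 18382 CPM in untreated SKBR3 and AU565. A375 held melanocyte genes at 580 and 636 CPM, and the E-cadherin gene CDH1 of the breast list stayed at 0.319 CPM or less in every library. SKBR3 and AU565 were close to each other. At most 1 gene at 100 CPM or more in 1 of them untreated was near absent in the other. Any other pair of lines had 6 or more such genes. Calls shared by SKBR3 and AU565 are therefore not read as those of 2 unrelated lines. The untreated SKBR3 replicates differed most, with a chi-square per gene of 11.1 against 1.34 in the group that differed least. The model shares each gene's spread over the 10 groups, so SE and p-values in SKBR3 do not measure that line's own spread. Replicate 1 of untreated A375 held 94T778 genes at a median 1.49% of their 94T778 level, against 0.110% in replicate 2, and replicate 2 of untreated SKBR3 held SKMEL28 genes at 0.288%, against 0.0789% in replicate 1. The platelet genes PF4 and GP9 had no counts, and the leukocyte list summed to between 3.58 and 107 CPM.

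Without drug the lines differed in every tested member. Of the 32 tested genes, 32 differed between lines by edgeR's quasi-likelihood test at an adjusted p of 0.05, where 96.3% of all tested genes did. Levels below are normalised CPM, as mean ± SD of 2 libraries, and are compared within a gene; levels are compared between genes only as CPM per kb of exon. SKBR3 and AU565 differed in 14 of 32 members (51.2% of all genes, and 9 members without untreated replicate 1 of AU565), A375 and SKMEL28 in 25 (68.6%), and A375 and AU565 in 31 (76.3%). The heat map of levels shows these patterns.

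**Figure D1:**
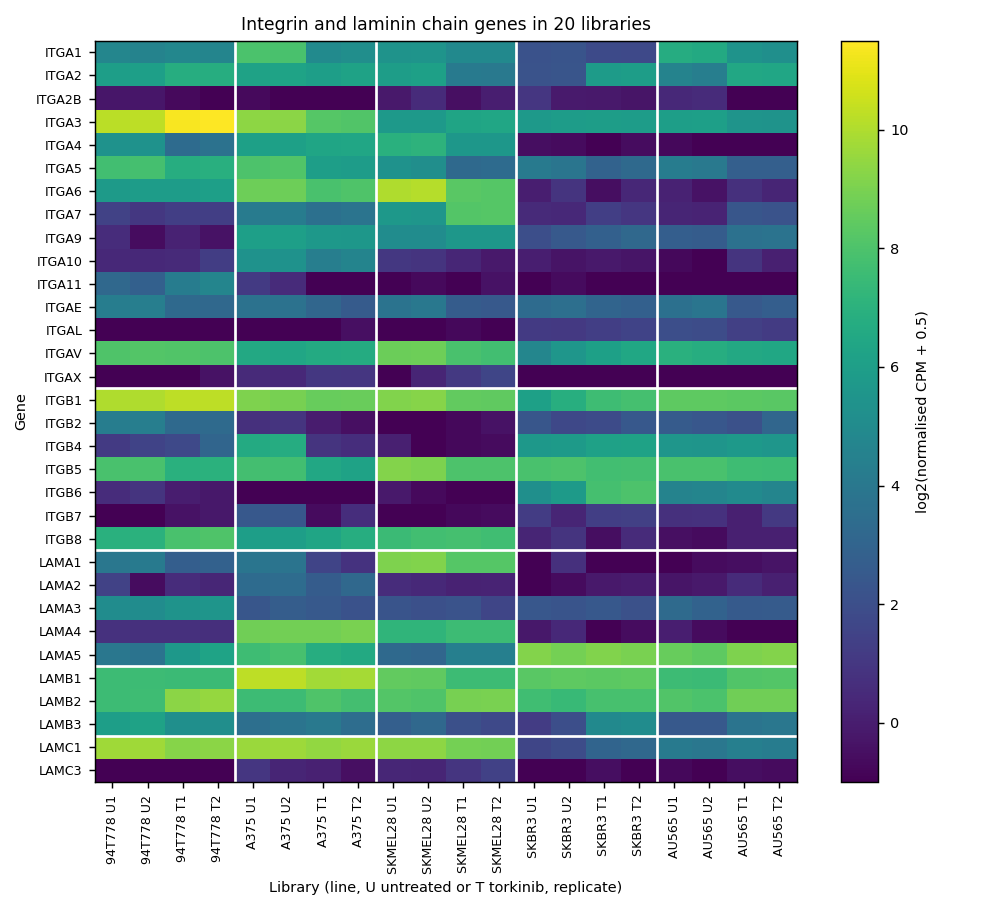
Level of 32 of the genes (rows) in the 20 libraries (columns), as log2 of normalised CPM plus 0.5. ITGA6 and LAMA1 are near 0 in the breast lines and high in SKMEL28. LAMC1 is far lower in the breast lines than elsewhere, at 16.1 CPM in untreated AU565 and 2.9 in untreated SKBR3. The highest and lowest untreated line differ by 1.86-fold for ITGAE, 2.597-fold for ITGB5 and 1.47-fold for LAMB2.

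The laminin-binding subunits differed widely between lines. ITGA3 stood at 1185 ± 26.5 CPM in 94T778 and 652 ± 22.2 CPM in A375 (edgeR adjusted p = 4.14e-13), and between 54.4 and 64.8 CPM in the other 3 lines, where no neighbouring pair passed the test. ITGA6 read 1019 and 1102 CPM in untreated SKMEL28, 433 and 425 in A375 and 55.7 and 58.9 in 94T778. In SKBR3 it read 0.552 and 1.32 CPM and in AU565 0.638 and 0.274, so both breast lines had almost no ITGA6 transcript. ITGA7, the laminin receptor subunit of muscle, was also highest in SKMEL28 at 49.9 and 47.5 CPM, above A375 at 18.1 and 18.4 (edgeR adjusted p = 2.95e-14), and lay at or under 2.22 CPM in every untreated library of the other lines. Per kb of exon, ITGA3 led the α subunits in 94T778, A375 and SKBR3 (121, 66.5 and 5.84 CPM per kb), ITGA6 led in SKMEL28 (162) and ITGAV in AU565 (14.03). In A375 the lead was very small, with ITGA6 at 65.7 CPM per kb. Those leads held with the longest transcript as the length.

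Of the collagen-binding subunits, ITGA1 and ITGA10 were highest in A375. ITGA1 stood at 247 ± 7.09 CPM there, at 102 ± 7.18 in AU565 and at 4.06 ± 0.277 in SKBR3, and all 4 neighbouring pairs in its order of levels differed. ITGA10, best known from cartilage, read 40.9 and 41.3 CPM in A375 and 1.56 and 1.31 in SKMEL28, the next highest line (edgeR adjusted p = 2.7e-20). ITGA11, a collagen receptor of fibroblasts and other mesenchymal cells, read 8.71 and 6.56 CPM in 94T778 and 1.72 and 0.955 in A375 (edgeR adjusted p = 3.35e-07), and 0.147 CPM or less in the other untreated libraries. ITGA2 lay close together in A375, 94T778 and SKMEL28 (74.7, 65.2 and 64.8 CPM, no neighbouring pair past the test) and lower in AU565 (21.8 ± 2.87) and SKBR3 (4.22 ± 0.251).

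ITGA5, the fibronectin receptor subunit, was 265 ± 14.7 CPM in A375 and 217 ± 7.26 in 94T778, 38.04 ± 3.44 in SKMEL28 and 17.2 and 15.7 CPM in AU565 and SKBR3, a difference that did not pass the test (edgeR adjusted p = 0.391). ITGAV, which joins several β subunits, ran from 422 ± 13.7 CPM in SKMEL28 to 36.7 ± 15.3 in SKBR3, where the 2 libraries were far apart at 25.9 and 47.5. ITGA4 and ITGA9, which form a small family of their own, were near 0 in other places: ITGA4 at or under 0.184 CPM in the breast libraries, ITGA9 at 1.03 and 0.168 CPM in 94T778. Leukocyte subunits were low. ITGAL reached 3.402 ± 0.153 CPM in AU565, ITGAX 0.8796 ± 0.0621 in A375, and ITGB2 19.4 ± 0.1402 in 94T778, where the leukocyte list summed to 17.6 and 21.0 CPM; what other cells contributed was not tested. ITGAE, the exception, lay between 10.6 and 19.7 CPM in all 5 lines.

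Among β subunits, ITGB1 was the most abundant per kb in 94T778, A375, SKMEL28 and AU565 (from 56.7 to 171 CPM per kb). In SKBR3 ITGB5 led, with 38.6 against 15.1 CPM per kb for ITGB1. ITGB6, which joins ITGAV on epithelial cells, read 37.1 and 55.4 CPM in SKBR3 and 23.8 and 25.7 in AU565 (edgeR adjusted p = 9.56e-07), against 1.35 CPM or less in the other lines. ITGB8 showed the reverse, from 64.7 to 195 CPM in A375, 94T778 and SKMEL28 and 1.03 ± 0.413 and 0.175 ± 0.0534 in SKBR3 and AU565. ITGB4 was 103 ± 4.78 CPM in A375, 52.8 ± 4.17 in SKBR3 and 45.9 ± 1.61 in AU565, and near 0 in SKMEL28. ITGB4 was thus present in the breast lines where its partner ITGA6 was near 0.

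The leading laminin α chain differed between lines, apart from the 2 breast lines. LAMA1, an early embryonic chain, read 536 and 559 CPM in SKMEL28 and 15.04 and 17.5 in 94T778, the next line (edgeR adjusted p = 2.77e-29). LAMA4, a chain of vessel and muscle laminins, was 449 ± 3.81 CPM in A375, 143 ± 1.73 in SKMEL28 and on average 1.19 CPM or less in each of the other 3 lines. LAMA5, the most widespread α chain of adult basement membranes, read 587 and 469.9 CPM in SKBR3, 383 and 332 in AU565 and 195 and 229.7 in A375, against 15.2 and 12.9 in 94T778 and 9.19 and 8.24 in SKMEL28. LAMA3, the α chain of epithelial anchoring laminin, was highest in 94T778 at 32.8 and 33.6 CPM, with AU565 next at 9.57 and 7.14 (edgeR adjusted p = 4.62e-14). LAMA2, mutated in a congenital muscular dystrophy, read 9.89 and 10.1 CPM in A375 and 2.22 or less elsewhere. Per kb, LAMA3 led the α chains in 94T778, LAMA4 in A375, LAMA1 in SKMEL28 and LAMA5 in both breast lines, under either measure of length.

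The β and γ chains behaved differently from each other. LAMB2 differed least between lines of all members with a ratio, from 187 ± 18.7 CPM in SKBR3 to 276 ± 15.8 in SKMEL28, a ratio of 1.47. LAMB1 read 1214 and 1228 CPM in A375 and 355 and 350.03 in SKMEL28 (edgeR adjusted p = 4.87e-23). LAMB3, a partner of LAMA3 in the anchoring laminin, read 63.6 and 72.99 CPM in 94T778 and 11.3 and 13.4 in A375. LAMC1, the γ chain of most laminins, stood at 846 ± 3.69, 802 ± 7.95 and 653 ± 0.395 CPM in 94T778, A375 and SKMEL28, but at 16.1 ± 1.78 in AU565 and 2.9 ± 0.461 in SKBR3. Per kb LAMC1 stood at 0.345 CPM in SKBR3 and 1.91 in AU565, and LAMC3 was lower still in both. In these lines the β chains LAMB1 and LAMB2 stood at 22.7 to 40.1 CPM per kb, far above LAMC1, as the plot of laminin chains per kb shows.

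**Figure D2:**
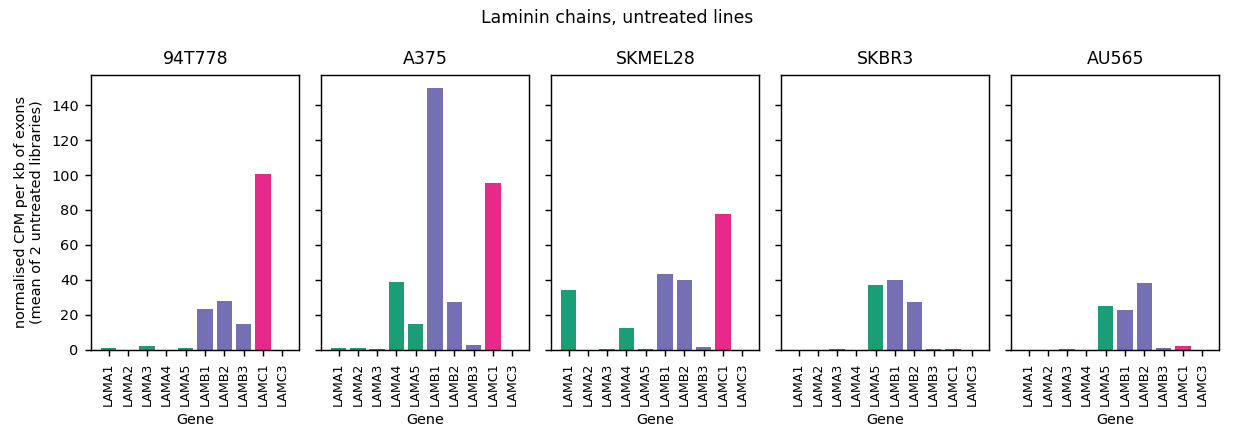
Laminin chains in the untreated lines, as mean normalised CPM per kb of exons over 2 libraries, with α, β and γ chains in 3 colours. LAMC1 is between 77.7 and 101 CPM per kb in 94T778, A375 and SKMEL28 and at 0.345 and 1.91 in SKBR3 and AU565, where LAMA5, LAMB1 and LAMB2 remain.

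With torkinib, more members fell than rose in A375 and SKMEL28. In A375, 17 of 32 members were lower and 3 higher, where 24.3% and 18.5% of all tested genes were; in SKMEL28 14 were lower and 7 higher, against 23.7% and 20.4%. In 94T778, 9 were higher (23.8% of all genes) and 8 lower (23.8%), in SKBR3 9 higher (24.6%) and 5 lower (26.7%), and in AU565 8 higher (26.9%) and 8 lower (28.6%). Without torkinib replicate 1 of A375, 1 member was higher in A375, without untreated replicate 2 of SKBR3, 1 was lower in SKBR3 (3 without either treated replicate), and without untreated replicate 1 or torkinib replicate 2 of AU565, 5 were lower in AU565. The shares of members in 94T778 and AU565 lay near those of all genes. The median log2 fold change of the members, with genes lacking counts in a group at their bound, was -0.65 in A375 and -0.63 in SKMEL28, against -0.02 and -0.01 for all genes with such bounds. It was -0.03 in 94T778, 0.11 in SKBR3 and 0.28 in AU565, against 0.02, 0.01 and 0.03. Across the lines, 16 members were called in both directions, 13 in 1 direction only and 3 (ITGAL, LAMA2 and LAMC3) in no line. How many of all tested genes show such patterns, or 1 direction in all 5 lines, was not counted. These counts describe the members only. The libraries are bulk RNA, so fewer cells with a transcript and less of it per cell cannot be told apart.

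**Figure D3:**
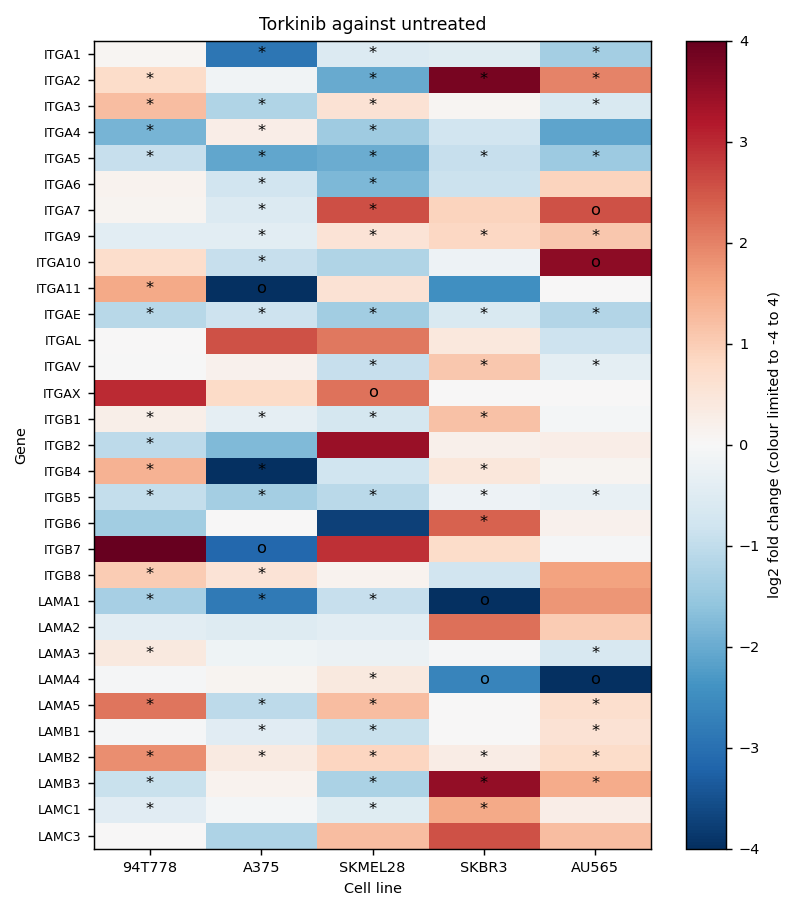
Log2 fold change of 31 tested members (rows) with torkinib in each line (columns), colour limited to -4 to 4. A star marks a call at an edgeR adjusted p of 0.05 and a circle a call whose higher group was under 5 CPM; only ITGA5, ITGAE, ITGB5 and LAMB2 carry a star of 1 sign in every column.

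ITGA5, ITGAE and ITGB5 fell in all 5 lines and LAMB2 rose in all 5. To show what lies before these 4 genes, the 250 bases before the first listed start site of each follow. They are from RefSeq on GRCh38.p14, a later build than the hg19 of the count files. Each is written 5′ to 3′ on its gene's strand, which is the minus strand in all 4 cases. Capitals mark GC boxes (GGGCGG on either strand, a site type of SP1) and TEAD elements (GGAATG on either strand), which do not overlap. ITGA5 is at chr12:54419267-54419516, ITGAE at chr17:3801189-3801438, ITGB5 at chr3:124901419-124901668 and LAMB2 at chr3:49133051-49133300.
ITGA5: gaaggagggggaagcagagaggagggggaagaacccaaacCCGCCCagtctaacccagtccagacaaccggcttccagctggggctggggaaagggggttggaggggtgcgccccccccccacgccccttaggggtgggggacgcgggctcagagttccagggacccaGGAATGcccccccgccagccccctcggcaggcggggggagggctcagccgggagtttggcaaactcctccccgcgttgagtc
ITGAE: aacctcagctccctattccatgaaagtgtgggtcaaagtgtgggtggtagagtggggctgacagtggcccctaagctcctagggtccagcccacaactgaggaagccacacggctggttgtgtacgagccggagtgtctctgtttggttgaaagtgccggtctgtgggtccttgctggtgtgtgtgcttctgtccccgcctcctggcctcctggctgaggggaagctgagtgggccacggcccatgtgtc
ITGB5: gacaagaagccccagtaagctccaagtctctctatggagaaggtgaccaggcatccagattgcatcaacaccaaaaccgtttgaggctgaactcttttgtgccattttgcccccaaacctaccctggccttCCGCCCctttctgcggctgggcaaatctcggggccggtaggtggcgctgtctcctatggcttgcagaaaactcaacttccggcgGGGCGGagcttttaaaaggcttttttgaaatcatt
LAMB2: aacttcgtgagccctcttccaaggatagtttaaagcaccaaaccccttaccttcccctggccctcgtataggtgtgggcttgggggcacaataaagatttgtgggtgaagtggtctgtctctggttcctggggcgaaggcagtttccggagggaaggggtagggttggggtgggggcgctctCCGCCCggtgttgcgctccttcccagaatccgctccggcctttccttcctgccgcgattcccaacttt

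ITGA5 holds 1 GC box and 1 TEAD element, ITGB5 2 GC boxes, LAMB2 1 GC box and ITGAE neither. A GC box lies in 42.6% of 35116 promoters of this length and in 11 of the 23 members that the table holds, and a TEAD element in 11.9% and in 4 of 23. The E-box CACGTG, the AP-1 element TGANTCA and the TATA box TATAAA, searched on both strands, lie in 6.34%, 6.57% and 10.7% of promoters and in none of these 4 windows. The 35116 are all listed promoters, with no limit of 1 per gene, whereas each member counts once, by its first listed start. Whether that start is the one used in these lines was not tested. A match is a stretch of letters and not a measured site.

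ITGA5 read 254 and 275 CPM in untreated A375 and 64.3 and 59.7 with torkinib (log2 fold change -2.09, SE 0.088, edgeR adjusted p = 8.45e-21). In SKMEL28 it read 40.5 and 35.6 against 9.17 and 9.75 CPM (log2 fold change -1.995, SE 0.14, edgeR adjusted p = 5.25e-15), and in AU565 18.4 and 16.1 against 6.47 and 6.299 CPM (log2 fold change -1.44, SE 0.18, edgeR adjusted p = 8.52e-09). In 94T778 it read 212 and 222 against 110.3 and 119 CPM (log2 fold change -0.92, SE 0.081, edgeR adjusted p = 6.91e-12), and in SKBR3 17.3 and 14.1 against 7.15 and 9.09 CPM (log2 fold change -0.92, SE 0.18, edgeR adjusted p = 5.19e-05). Both treated libraries lay below both untreated ones in each line, whether the starting level was that of A375 or that of the breast lines, as the plot of 4 genes by library shows. The fall was larger in A375 than in AU565 at the same dose, with a difference in log2 fold change of -0.65 (SE 0.21, edgeR adjusted p = 0.0147).

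ITGB5, which pairs with ITGAV to bind vitronectin, fell most in A375, from 215 and 207 to 90.7 and 73.99 CPM (log2 fold change -1.35, SE 0.086, edgeR adjusted p = 1.05e-15). It went from 574 and 523 to 257 and 261 CPM in SKMEL28 (log2 fold change -1.08, SE 0.076, edgeR adjusted p = 1.15e-14) and from 238 and 239.6 to 121 and 127 in 94T778 (log2 fold change -0.95, SE 0.081, edgeR adjusted p = 2.68e-12). In the breast lines the step was small, from 242 and 256 to 212 and 217 CPM in SKBR3 (log2 fold change -0.21, SE 0.079, edgeR adjusted p = 0.0227) and from 237 and 238 to 193 and 189.6 in AU565 (log2 fold change -0.31, SE 0.079, edgeR adjusted p = 0.000908). The groups did not overlap in any line, but the SKBR3 call was lost with DESeq2 (adjusted p = 0.0509) and with only that line's 4 libraries in the edgeR fit (adjusted p = 0.104). The fall was larger in A375 than in AU565, with a difference in log2 fold change of -1.04 (SE 0.12, edgeR adjusted p = 3.85e-09), and larger in SKMEL28 than in AU565, with -0.77 (SE 0.11, edgeR adjusted p = 4.66e-07).

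ITGAE encodes the subunit that binds E-cadherin on lymphocytes of epithelia. It went from 12.9 and 15.3 to 5.68 and 5.15 CPM in SKMEL28 (log2 fold change -1.39, SE 0.19, edgeR adjusted p = 1.18e-07), from 11.9 and 13.9 to 5.14 and 6.15 in AU565 (log2 fold change -1.16, SE 0.20, edgeR adjusted p = 5.23e-06) and from 19.3 and 20.01 to 9.22 and 8.95 in 94T778 (log2 fold change -1.11, SE 0.17, edgeR adjusted p = 7.04e-07). In A375 it went from 12.7 and 12.4 to 8.23 and 5.48 CPM (log2 fold change -0.83, SE 0.20, edgeR adjusted p = 0.000684) and in SKBR3 from 9.75 and 11.4 to 7.55 and 6.54 (log2 fold change -0.61, SE 0.21, edgeR adjusted p = 0.0151). The groups did not overlap in any line. The leukocyte list moved the other way in SKBR3, from 35.3 and 41.2 to 92.2 and 107 CPM. It fell along with ITGAE in 94T778, A375, SKMEL28 and AU565. The sums went from 17.6 and 21.0 to 12.5 and 14.2 CPM in 94T778. In AU565 they went from 37.2 and 41.6 to 33.3 and 33.7 CPM. Within that list LCP1 reached 106 CPM and PTPRC 18.3, while SPI1 stayed at or under 0.218 CPM in all 20 libraries. The part of other cells in the ITGAE falls was not tested. The SKBR3 call of ITGAE was lost with DESeq2 (adjusted p = 0.0604) and with only that line's libraries in the edgeR fit (adjusted p = 0.0506).

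LAMB2, the β chain of laminins at the kidney filter and the neuromuscular junction, rose most in 94T778, from 190.02 and 195 to 641 and 746 CPM (log2 fold change 1.85, SE 0.088, edgeR adjusted p = 2.55e-19). It rose from 287 and 264 to 492 and 499 CPM in SKMEL28 (log2 fold change 0.85, SE 0.086, edgeR adjusted p = 1.69e-10) and from 277 and 251 to 438 and 439.9 in AU565 (log2 fold change 0.73, SE 0.086, edgeR adjusted p = 2.88e-09). The rises in A375, from 189 and 189 to 267 and 219.7 CPM (log2 fold change 0.37, SE 0.089, edgeR adjusted p = 0.000836), and SKBR3, from 200.4 and 174 to 234 and 229 (log2 fold change 0.31, SE 0.090, edgeR adjusted p = 0.00398), were smaller. All treated libraries lay above the untreated ones of their line. Without torkinib replicate 1 of A375 the A375 value was 0.22 (edgeR adjusted p = 0.116), and without untreated replicate 2 of SKBR3 the SKBR3 value was 0.21 (edgeR adjusted p = 0.064).

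**Figure D4:**
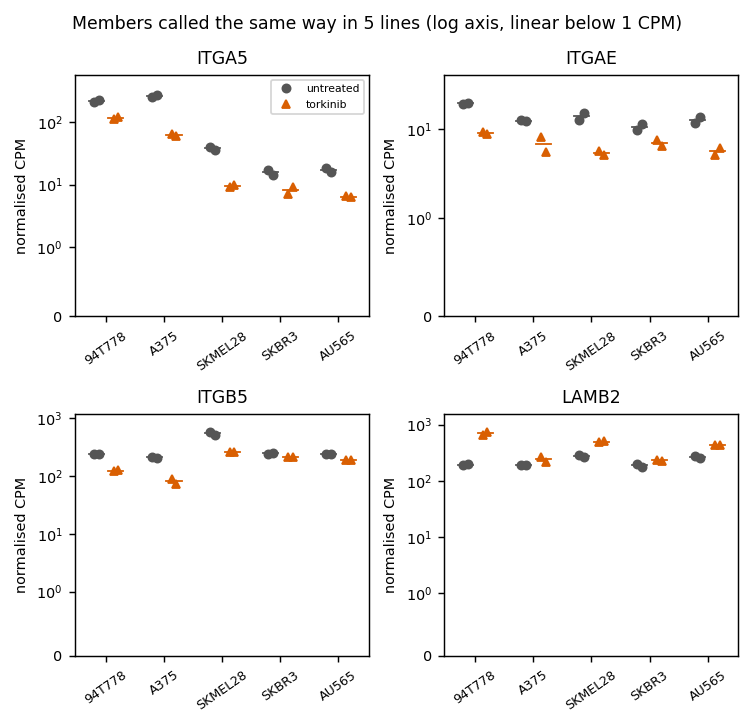
Normalised CPM (log axis, linear below 1) of the 4 members called in 1 direction in 5 lines, with each library as a point and the mean as a line. ITGA5, ITGAE and ITGB5 lie lower and LAMB2 higher with torkinib in each line; ITGA5 in A375 goes from 254 and 275 to 64.3 and 59.7 CPM.

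The laminin-binding subunits moved in different directions. ITGA3 rose in 94T778, from 1167 and 1204 to 2698 and 2894 CPM (log2 fold change 1.24, SE 0.072, edgeR adjusted p = 6.63e-17), and fell in A375, from 668 and 636 to 294 and 272 (log2 fold change -1.20, SE 0.075, edgeR adjusted p = 5.71e-16). These are the 2 lines with the most ITGA3, and their log2 fold changes differed by 2.44 (SE 0.10, edgeR adjusted p = 3.84e-20), though the dose differed as well. ITGA3 also rose in SKMEL28 (log2 fold change 0.58, SE 0.090, edgeR adjusted p = 1.6e-06) and fell in AU565 (log2 fold change -0.60, SE 0.096, edgeR adjusted p = 1.77e-06). ITGA6 fell in SKMEL28, from 1019 and 1102 to 319.6 and 292 CPM (log2 fold change -1.79, SE 0.081, edgeR adjusted p = 4.01e-20), and in A375 (log2 fold change -0.76, SE 0.082, edgeR adjusted p = 9.39e-10).

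ITGA7 rose in SKMEL28 from 49.9 and 47.5 to 284 and 291 CPM (log2 fold change 2.57, SE 0.082, edgeR adjusted p = 4.12e-24), the largest rise of a member in that line at 5 CPM or more. It fell in A375, from 18.1 and 18.4 to 11.7 and 13.7 CPM (log2 fold change -0.53, SE 0.14, edgeR adjusted p = 0.00238), a call that was lost without torkinib replicate 1 (edgeR adjusted p = 0.0959). At the same 4 µM the log2 fold changes of the 2 melanoma lines differed by 3.10 (SE 0.16, edgeR adjusted p = 4.54e-17). In AU565 ITGA7 rose from 0.745 and 0.686 to 4.57 and 4.102 CPM (log2 fold change 2.55, SE 0.35, edgeR adjusted p = 1.04e-07). In SKMEL28 the levels of these subunits moved towards each other: ITGA6 went from 162 to 46.8 CPM per kb and ITGA7 from 7.64 to 45.2. Which of them was higher with torkinib depended on the length used.

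ITGB4, the hemidesmosome β subunit, had the largest change of any member at 5 CPM or more. It read 99.6 and 106 CPM in untreated A375 and 1.37 and 1.05 with torkinib (log2 fold change -6.36, SE 0.24, edgeR adjusted p = 4.52e-22). With any 1 library left out that value lay between -6.59 and -6.22. In SKBR3 it rose from 49.8 and 55.7 to 70.7 and 73.5 CPM (log2 fold change 0.45, SE 0.13, edgeR adjusted p = 0.00348), and in AU565 it read 47.01 and 44.7 against 53.3 and 46.3 CPM (log2 fold change 0.11, SE 0.13, edgeR adjusted p = 0.518). In 94T778 it read 1.71 and 2.35 untreated and 2.91 and 7.81 CPM with torkinib (log2 fold change 1.39, SE 0.38, edgeR adjusted p = 0.00268), where 1 treated library stood apart: without torkinib replicate 2 the change was 0.51 (edgeR adjusted p = 0.389), and without untreated replicate 1 it was 1.18 (edgeR adjusted p = 0.0572). The log2 fold change in A375 minus that in AU565, at the same dose, was -6.47 (SE 0.30, edgeR adjusted p = 4.77e-19).

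Collagen-binding subunits split the lines as well. ITGA2 rose in SKBR3 from 4.05 and 4.4 to 56.8 and 61.6 CPM (log2 fold change 3.80, SE 0.16, edgeR adjusted p = 2.58e-21) and in AU565 from 23.8 and 19.8 to 90.4 and 84.97 (log2 fold change 1.99, SE 0.10, edgeR adjusted p = 1.07e-18). In SKMEL28 it fell from 62.4 and 67.3 to 16.5 and 15.8 CPM (log2 fold change -2.006, SE 0.11, edgeR adjusted p = 1.23e-17). No group pair overlapped in these 3 lines. ITGA2 rose slightly in 94T778 (log2 fold change 0.74, SE 0.088, edgeR adjusted p = 7.59e-09) and read 72.8 and 76.5 against 64.6 and 72.9 CPM in A375 (log2 fold change -0.13, SE 0.091, edgeR adjusted p = 0.277). At 4 µM, the log2 fold changes of AU565 and SKMEL28 differed by 4.00 (SE 0.15, edgeR adjusted p = 1.46e-21). With torkinib ITGA2 stood at 59.2 ± 3.36 CPM in SKBR3 and 87.7 ± 3.81 in AU565, beside untreated means of 64.8 to 74.7 in SKMEL28, 94T778 and A375.

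ITGA1 fell in A375 from 252 and 242 to 31.1 and 36.3 CPM (log2 fold change -2.89, SE 0.092, edgeR adjusted p = 2.93e-24) and in AU565 from 107 and 96.7 to 41.7 and 37.5 (log2 fold change -1.37, SE 0.093, edgeR adjusted p = 2.91e-15). These lines had the 2 highest untreated levels of ITGA1. It fell less in SKMEL28 (log2 fold change -0.54, SE 0.10, edgeR adjusted p = 4.63e-05), and stood at 26.1 and 23.7 against 26.7 and 25.5 CPM in 94T778 (log2 fold change 0.064, SE 0.12, edgeR adjusted p = 0.711). ITGA10 fell in A375, from 40.9 and 41.3 to 19.96 and 24.2 CPM (log2 fold change -0.91, SE 0.14, edgeR adjusted p = 1.48e-06), and its call in AU565 rests on 1 count untreated and 11 with torkinib, a ratio of 15.2 (95% interval 2.21 to 654). ITGA11 rose in 94T778 from 8.71 and 6.56 to 18.3 and 25.2 CPM (log2 fold change 1.51, SE 0.22, edgeR adjusted p = 7.29e-07). In A375 it had 21 counts untreated and 0 with torkinib, at least 4.96-fold lower. The untreated A375 values were 1.72 and 0.955 CPM, and the higher came from the library that held more 94T778 transcripts; their part in that result was not tested, and the call held with either untreated library left out (highest edgeR adjusted p with 1 library left out 0.0236).

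ITGB1 and ITGAV, the shared partners, rose in SKBR3 and fell in SKMEL28. ITGB1 went from 68.6 and 113 to 193 and 222 CPM in SKBR3 (log2 fold change 1.18, SE 0.12, edgeR adjusted p = 6.73e-11) and from 564 and 602 to 361 and 350.4 in SKMEL28 (log2 fold change -0.72, SE 0.10, edgeR adjusted p = 3.48e-07). ITGAV went from 25.9 and 47.5 to 69.3 and 86.6 CPM in SKBR3 (log2 fold change 1.07, SE 0.14, edgeR adjusted p = 7.88e-08) and from 412 and 431 to 236 and 208 in SKMEL28 (log2 fold change -0.92, SE 0.11, edgeR adjusted p = 4.37e-09). ITGB1 was also lower in A375 (log2 fold change -0.37, SE 0.10, edgeR adjusted p = 0.0032) and ITGAV in AU565 (log2 fold change -0.38, SE 0.12, edgeR adjusted p = 0.00782), where leaving out untreated replicate 1 ended the ITGAV call (edgeR adjusted p = 0.091). In 94T778 ITGB1 was called higher (log2 fold change 0.25, SE 0.10, edgeR adjusted p = 0.041), but not with DESeq2 (adjusted p = 0.122), with its size factors in edgeR (adjusted p = 0.056) or without any 1 of that line's libraries (edgeR adjusted p from 0.103 to 0.169). The 2 untreated SKBR3 libraries were far apart for both genes, yet both lay below the treated ones. The SE and p of these SKBR3 values use a spread shared over all groups and do not measure that distance. With any 1 library left out, the SKBR3 value of ITGAV ranged from 0.71 to 1.60 and that of ITGB1 from 0.86 to 1.60. ITGB6 rose in SKBR3 from 37.1 and 55.4 to 223 and 258 CPM (log2 fold change 2.36, SE 0.12, edgeR adjusted p = 2.93e-18) and read 23.8 and 25.7 against 30.6 and 25.1 in AU565 (log2 fold change 0.16, SE 0.15, edgeR adjusted p = 0.397). The log2 fold changes of ITGB6 in these 2 breast lines differed by 2.20 (SE 0.19, edgeR adjusted p = 2.1e-10), with 0.8 µM in one and 4 µM in the other. The endothelial list moved with these rises: its 4 genes summed to 18.4 and 22.6 CPM in untreated SKBR3 and 163 and 170 with torkinib, nearly all from CDH5 (169 CPM at most), with TEK at 0.841 CPM or less and VWF at 3.51 or less in every library. In AU565, where ITGA2 and LAMB3 rose, it went from 30.2 and 29.5 to 79.9 and 83.1 CPM. Its part in these results was not tested.

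ITGA4, a subunit for fibronectin and VCAM1, fell in 94T778 from 41.01 and 40.4 to 9.98 and 12.6 CPM (log2 fold change -1.85, SE 0.13, edgeR adjusted p = 3.41e-14) and in SKMEL28 from 123 and 134 to 48.8 and 47.8 (log2 fold change -1.42, SE 0.090, edgeR adjusted p = 1.3e-15). In A375 it read 69.3 and 67.4 against 81.4 and 83.3 CPM (log2 fold change 0.27, SE 0.092, edgeR adjusted p = 0.0178), a rise that was not called with DESeq2 (adjusted p = 0.0677) nor without any 1 of that line's 4 libraries. ITGA9 rose in AU565 from 6.17 and 5.63 to 11.98 and 13.04 CPM (log2 fold change 1.08, SE 0.20, edgeR adjusted p = 1.27e-05), in SKBR3 (log2 fold change 0.82, SE 0.25, edgeR adjusted p = 0.0065) and in SKMEL28 (log2 fold change 0.54, SE 0.11, edgeR adjusted p = 0.000145), and fell in A375 from 66.1 and 66.4 to 50.4 and 48.7 (log2 fold change -0.42, SE 0.11, edgeR adjusted p = 0.00158). The SKBR3 call of ITGA9 was lost without untreated replicate 1 (edgeR adjusted p = 0.0924) or torkinib replicate 2 (edgeR adjusted p = 0.187). ITGB8 rose in 94T778 from 121 and 127 to 238 and 265 CPM (log2 fold change 1.02, SE 0.095, edgeR adjusted p = 2.54e-11) and in A375 (log2 fold change 0.54, SE 0.11, edgeR adjusted p = 7.88e-05). ITGB2 fell in 94T778 from 19.3 and 19.5 to 9.098 and 9.58 CPM (log2 fold change -1.05, SE 0.20, edgeR adjusted p = 3.38e-05). ITGB7 was called only in A375, from 5.01 and 4.78 to 0.152 and 1.05 CPM (log2 fold change -3.16, SE 0.51, edgeR adjusted p = 4.03e-06). That value was -2.20 without torkinib replicate 1 and -4.85 without torkinib replicate 2. ITGAX was called only in SKMEL28, from 0 and 0.717 to 1.64 and 2.57 CPM, and the call was lost without untreated replicate 1 (edgeR adjusted p = 0.0684) or torkinib replicate 2 (edgeR adjusted p = 0.0625). Its log2 fold change lay between 1.50 and 6.82 with 1 library left out, the highest without untreated replicate 2, which left only an untreated library with no counts. ITGA2B, the platelet subunit left out of the tests, had 15 counts in untreated AU565 and 0 with torkinib, at least 3.62-fold lower.

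**Figure D5:**
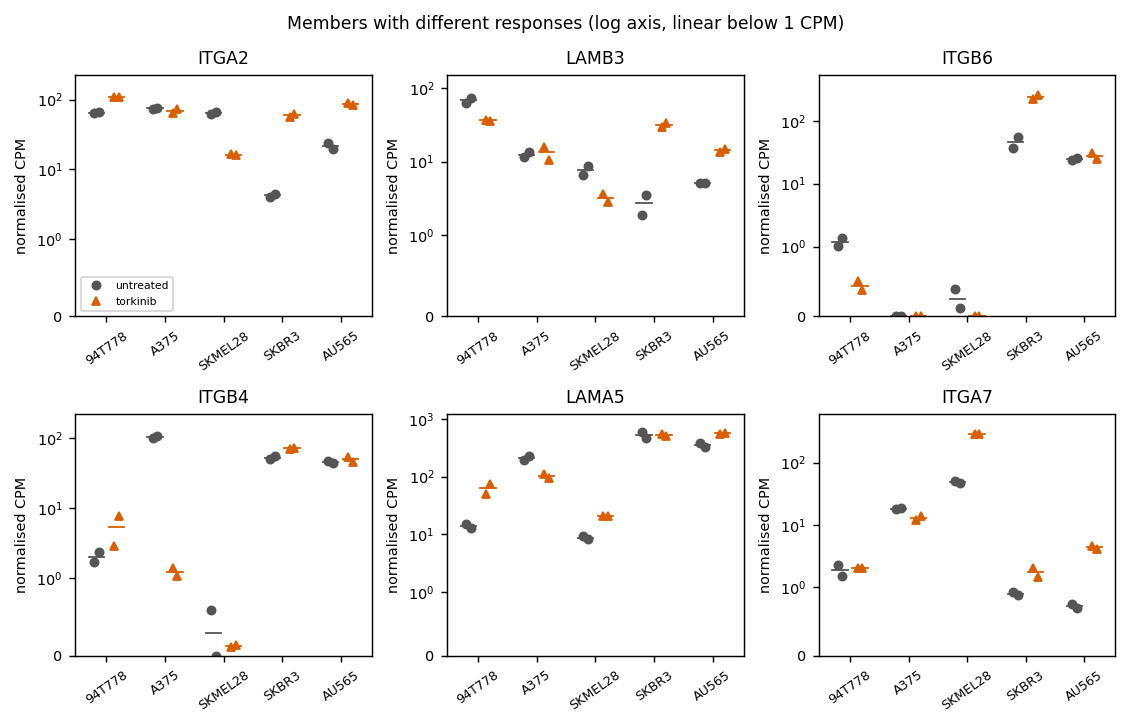
Normalised CPM (log axis, linear below 1) of 6 members whose response differed between lines, with each library as a point and the mean as a line. ITGA2 and LAMB3 rise in the breast lines and fall in SKMEL28, ITGB6 rises in SKBR3, ITGB4 falls in A375, LAMA5 rises in 94T778 and falls in A375, and ITGA7 rises in SKMEL28.

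Laminin α chains changed in opposite directions too. LAMA5 rose in 94T778 from 15.2 and 12.9 to 50.04 and 74.5 CPM (log2 fold change 2.14, SE 0.17, edgeR adjusted p = 5.36e-13), the largest called change there. It rose in SKMEL28 (log2 fold change 1.24, SE 0.22, edgeR adjusted p = 9.39e-06) and AU565 (log2 fold change 0.66, SE 0.11, edgeR adjusted p = 1.66e-06) and fell in A375 from 195 and 229.7 to 112 and 95.1 CPM (log2 fold change -1.03, SE 0.12, edgeR adjusted p = 3.55e-09). The log2 fold changes of the melanoma lines differed by 2.28 (SE 0.24, edgeR adjusted p = 2.59e-09) at the same dose. SKBR3, with the most LAMA5, read 587 and 469.9 untreated and 558 and 514 CPM with torkinib (log2 fold change 0.021, SE 0.11, edgeR adjusted p = 0.938).

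LAMA1 fell in the 3 lines that held it at 5 CPM or more. It went from 13.98 and 13.7 to 2.44 and 1.26 CPM in A375 (log2 fold change -2.82, SE 0.28, edgeR adjusted p = 1.8e-10; -3.44 without torkinib replicate 1), from 15.04 and 17.5 to 6.07 and 6.804 in 94T778 (log2 fold change -1.34, SE 0.20, edgeR adjusted p = 6.65e-07) and from 536 and 559 to 289.8 and 295 in SKMEL28 (log2 fold change -0.91, SE 0.084, edgeR adjusted p = 2.67e-11). Its call in SKBR3 rests on 8 counts, all in untreated replicate 2, which also held more SKMEL28 transcripts, against 0 with torkinib (at least 2.46-fold lower), and without that library no difference was left (edgeR adjusted p = 1). In AU565 it read 0 and 0.137 against 0.1902 and 0.293 CPM (log2 fold change 1.77, SE 1.4, edgeR adjusted p = 0.299). LAMA4 read 447 and 452 against 465 and 509.9 CPM in A375 (log2 fold change 0.12, SE 0.074, edgeR adjusted p = 0.213), and rose in SKMEL28 from 144 and 142 to 189 and 188 (log2 fold change 0.40, SE 0.080, edgeR adjusted p = 9.09e-05). Its calls in the breast lines rest on 8 counts against 1 in SKBR3 (ratio 7.38, 95% interval 0.989 to 327) and 6 against 0 in AU565 (at least 1.45-fold lower), and each was lost with 1 library left out (highest edgeR adjusted p 0.348 and 0.258). LAMA3 rose in 94T778 from 32.8 and 33.6 to 41.8 and 45.1 CPM (log2 fold change 0.39, SE 0.12, edgeR adjusted p = 0.00801) and fell in AU565 from 9.57 and 7.14 to 5.33 and 5.42 (log2 fold change -0.65, SE 0.22, edgeR adjusted p = 0.0124). DESeq2 did not call the 94T778 rise (adjusted p = 0.111). That call was also lost in edgeR without untreated replicate 1 (log2 fold change 0.37) or torkinib replicate 2 (0.33). The AU565 fall was not called without untreated replicate 1 (log2 fold change -0.41), torkinib replicate 1 (-0.65) or torkinib replicate 2 (-0.68).

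LAMB3 was called in the same direction as ITGA2 in SKBR3, AU565 and SKMEL28. It rose in SKBR3 from 1.84 and 3.52 to 29.6 and 33.8 CPM (log2 fold change 3.52, SE 0.23, edgeR adjusted p = 9.57e-16) and in AU565 from 5.11 and 5.08 to 13.3 and 14.9 (log2 fold change 1.48, SE 0.21, edgeR adjusted p = 2.64e-07). It fell in SKMEL28 from 6.45 and 8.72 to 3.604 and 2.84 CPM (log2 fold change -1.26, SE 0.26, edgeR adjusted p = 0.000146) and, unlike ITGA2, in 94T778 from 63.6 and 72.99 to 37.3 and 36.2 (log2 fold change -0.89, SE 0.12, edgeR adjusted p = 7.23e-08). In A375 the groups overlapped, at 11.3 and 13.4 untreated against 16 and 10.5 CPM with torkinib (log2 fold change 0.14, SE 0.19, edgeR adjusted p = 0.591). LAMA3, its partner, was not called higher in the breast lines and read 4.78 and 4.25 against 4.97 and 3.83 CPM in SKBR3 (log2 fold change -0.049, SE 0.29, edgeR adjusted p = 0.962).

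Since ITGA2 and LAMB3 were called in the same direction in SKBR3, AU565 and SKMEL28, the 250 bases before the first listed start of each are shown. They lie on the plus strand for ITGA2 (chr5:52989102-52989351) and the minus strand for LAMB3 (chr1:209652426-209652675), with GC boxes in capitals.
ITGA2: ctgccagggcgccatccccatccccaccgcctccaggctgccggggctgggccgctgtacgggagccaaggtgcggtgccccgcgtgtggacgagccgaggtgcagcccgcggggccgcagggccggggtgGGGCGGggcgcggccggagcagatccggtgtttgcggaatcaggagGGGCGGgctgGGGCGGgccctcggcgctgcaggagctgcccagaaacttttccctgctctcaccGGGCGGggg
LAMB3: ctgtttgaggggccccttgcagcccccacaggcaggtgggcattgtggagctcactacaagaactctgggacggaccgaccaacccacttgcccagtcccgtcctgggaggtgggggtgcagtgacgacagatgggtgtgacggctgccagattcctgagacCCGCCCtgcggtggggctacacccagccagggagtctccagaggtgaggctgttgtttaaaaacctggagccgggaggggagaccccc

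ITGA2 holds 4 GC boxes and LAMB3 1, and neither window holds the E-box, AP-1, TEAD or TATA letters.

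LAMB1 fell in SKMEL28 from 355 and 350.03 to 191 and 187 CPM (log2 fold change -0.90, SE 0.071, edgeR adjusted p = 2.84e-13) and in A375 from 1214 and 1228 to 880.2 and 886 (log2 fold change -0.47, SE 0.066, edgeR adjusted p = 3.5e-07). It rose in AU565 from 187 and 183 to 270.5 and 284 CPM (log2 fold change 0.59, SE 0.071, edgeR adjusted p = 6.6e-09). With LAMB2 rising at the same time, the leading β chain of SKMEL28 changed, from LAMB1 at 43.3 and LAMB2 at 40.2 CPM per kb untreated to 23.2 and 72.2 with torkinib. LAMC1 fell in 94T778 (log2 fold change -0.47, SE 0.072, edgeR adjusted p = 1.3e-06) and in SKMEL28 from 653 and 654 to 474 and 452 CPM (log2 fold change -0.50, SE 0.073, edgeR adjusted p = 5.04e-07). It rose in SKBR3 from 2.57 and 3.23 to 7.75 and 8.93 CPM (log2 fold change 1.51, SE 0.24, edgeR adjusted p = 1.89e-06).

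The response itself differed between lines in 27 of 32 members by edgeR's test on all 5 lines (68.4% of all tested genes). Among the lines given 4 µM, A375 and SKMEL28 differed in 19 members (28.4% of all genes), A375 and AU565 in 20 (38%, and 11 members without torkinib replicate 2 of AU565) and SKMEL28 and AU565 in 13 (34.8%). Against AU565, A375 had the lower response in 18 members and the higher in 2, where 18.7% and 19.3% of all genes did. The lower group included ITGB4, ITGA2 and LAMA5. It also included members with few AU565 counts, among them LAMA1 (1 untreated and 3 with torkinib), ITGA10 (1 and 11) and ITGA6 (8 and 11). Of the higher ones, LAMA4 had 6 and 0 counts in AU565. Between A375 and SKMEL28, the call of ITGB4 rests on 3 and 2 counts in SKMEL28. SKBR3 and AU565, whose doses differed, differed in 13 members (23.8% of all genes). The log2 fold change in SKBR3 exceeded that in AU565 for ITGA2, by 1.81 (SE 0.21, edgeR adjusted p = 4.47e-08), and for LAMB3, by 2.038 (SE 0.35, edgeR adjusted p = 3.23e-05).

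On the average of the 5 lines, 6 members were higher and 9 lower (28.4% and 28.1% of all genes). The lower ones include LAMA1 and LAMA4, which had a group with no counts and so have no finite average. They also include ITGB4 (log2 fold change -1.04, edgeR adjusted p = 0.0131), which was called lower only in A375 and higher in 94T778 and SKBR3. ITGA5 (log2 fold change -1.47, SE 0.062, edgeR adjusted p = 8.87e-22), ITGAE (log2 fold change -1.02, SE 0.086, edgeR adjusted p = 6.57e-13) and ITGB5 (log2 fold change -0.78, SE 0.036, edgeR adjusted p = 1.45e-20) fell, and LAMB2 (log2 fold change 0.82, SE 0.039, edgeR adjusted p = 4.59e-20) rose. For ITGA3 the average was 0.019 (edgeR adjusted p = 0.793), with rises and falls in single lines, and for ITGB1 it was 0.051 (edgeR adjusted p = 0.403).

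Of 54 tested genes that act beside integrins and laminins, 10 were higher and 24 lower on the average of the lines (28.4% and 28.1% of all genes), out of 55 listed. Among 23 activators and adaptors of adhesion sites 12 fell, with the kinase SRC (log2 fold change -0.53, SE 0.059, edgeR adjusted p = 4.62e-10) and the scaffold PXN (log2 fold change -0.36, SE 0.038, edgeR adjusted p = 2.73e-10) by the smallest p, and 3 rose, with TLN1, the talin that links β subunits to actin (log2 fold change 0.20, SE 0.035, edgeR adjusted p = 6.49e-06), and PARVA (log2 fold change 0.18, SE 0.043, edgeR adjusted p = 0.000616). In SKBR3 12 of 23 were higher and 3 lower (24.6% and 26.7% of all genes), PXN among the higher (log2 fold change 0.24, SE 0.094, edgeR adjusted p = 0.0286). Of 5 inhibitors of integrins 3 rose, by the smallest p the filamin FLNA (log2 fold change 0.87, SE 0.035, edgeR adjusted p = 2.91e-22), most in AU565 (log2 fold change 2.28), and SHARPIN (log2 fold change 0.44, SE 0.056, edgeR adjusted p = 1.08e-08), and ITGB1BP1 and DOK1 fell, with log2 fold changes of -0.21 and -0.43. Of 6 hemidesmosome and tetraspanin partners PLEC, the plectin that holds ITGB4 to keratin, and DST rose, with 0.33 and 0.17 on the log2 scale, and CD82 and CD151 fell, with -0.72 and -0.17. PLEC was 1.44 on the log2 scale in 94T778 and -0.25 in SKMEL28.

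Of 7 other laminin receptors 2 fell and 1 rose on the average (28.1% and 28.4% of all genes). SDC1, a syndecan, fell in each line, by most in SKMEL28 (log2 fold change -3.28, SE 0.15, edgeR adjusted p = 1.1e-19) and by least in AU565 (log2 fold change -0.59, SE 0.071, edgeR adjusted p = 5.11e-09), and DAG1, the dystroglycan gene, fell on the average (log2 fold change -0.37, SE 0.041, edgeR adjusted p = 6.33e-10) though it rose in 94T778 and A375. SDC4 rose on the average (log2 fold change 0.32, SE 0.043, edgeR adjusted p = 4.8e-08), with falls in A375 and SKMEL28. Of 10 tested genes for other basement membrane parts and integrin ligands 5 fell and 1 rose, with thrombospondin THBS1 (log2 fold change -1.13, SE 0.091, edgeR adjusted p = 2.01e-13) and fibulin FBLN1 (log2 fold change -1.36, SE 0.13, edgeR adjusted p = 8.78e-12) the lower genes by smallest p, although THBS1 rose in AU565 (log2 fold change 0.68, SE 0.088, edgeR adjusted p = 2.61e-08), and agrin, AGRN (log2 fold change 0.13, SE 0.038, edgeR adjusted p = 0.00258), the 1 that rose. Of 3 netrins and laminin relatives only NTN1 was called (log2 fold change -0.55, SE 0.23, edgeR adjusted p = 0.0384).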

How the data were processed

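The labels' protocols give a Qiagen RNeasy midi kit for the total RNA. The deposited files hold raw counts per gene symbol, 1 file per library, per the file headers and values without normalization. The submitters' processing notes name the build hg19 and, with no roles, the tools limma 3.34.9, HTSeq 0.6.1 and HISAT2 2.04. The gene annotation and strand setting were not given in the sources used here, so overlapping genes cannot be told apart. Counted reads were 47.8 to 62.4% of all reads of a library, and the rest, which name no gene, were left out.

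Counts were fitted in R 4.3.3 with edgeR 4.0.16 (TMM factors, filterByExpr, 10 group means in 1 model, quasi-likelihood test, Benjamini-Hochberg adjustment over 16698 genes at 0.05). The common biological coefficient of variation was 0.0547, with 10 residual degrees of freedom. Levels are TMM-normalised CPM. Levels per kb use GENCODE 29 exons of GRCh38. Against a group with no counts a fold is a bound from a floor of 3 counts over the group, and neither bounds nor 95% intervals cover more than counting error. The test was run on independent counts simulated from its own fitted means and dispersions. Such counts cannot show how it does with replicates as uneven as those of untreated SKBR3, or with shared cultures. Alternatives were DESeq2 1.42.0, limma-voom (limma 3.58.1), other scaling, no filter, fewer libraries and replicate blocks.

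The members, gene lists and tests were chosen with earlier results of these data known. Values by library were given, by rule, for the 4 called members with the largest change in each line at 5 CPM or more, those called 1 way in 4 or 5 lines, the 3 that most set a line apart untreated, and the 6 with the largest opposite changes. Partner genes were named as the 2 smallest p per list and direction on the average. ITGA3, ITGA9, ITGAV, ITGB1, ITGB2, ITGB7 and ITGB8 were added after their values were seen. Counts of members cover all tested members, 1 of which is not reported here by name or drawn.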

Additional observations from a re-analysis of the deposited data

Results flagged for a closer look

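The response to torkinib differed between lines in 27 of 32 tested members (68.4% of all tested genes), by edgeR's test of the difference itself. For 16 of them a rise was called in 1 line and a fall in another, and the pair of lines with the widest gap is given here as the difference between their log2 fold changes, with the edgeR adjusted p of that difference. Since the pair was picked for its gap, the size is a description. The share of all tested genes with such opposite calls was not counted. Some of the single calls were lost in alternative runs: the rises of ITGB4 in 94T778 and ITGA4 in A375, the fall of ITGA7 in A375 and both calls of LAMA3. For these genes the difference between the lines kept its side of the threshold in every run.

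Between 94T778 and A375, given 10 and 4 µM, the difference was 7.75 for ITGB4 (adjusted p = 3.28e-15), 3.18 for LAMA5 (7.21e-15) and 2.44 for ITGA3 (3.84e-20). For ITGA11 the fitted difference was 7.71 (3.17e-05), but treated A375 had no counts, so its size depends on the prior count and the fall there is known only as at least 4.96-fold. ITGA4 went the other way, with A375 above 94T778 by 2.11 (6.41e-13). Between SKBR3 and SKMEL28, given 0.8 and 4 µM, SKBR3 lay higher by 5.81 for ITGA2 (2.58e-23), 4.77 for LAMB3 (2.43e-13), 2.01 for LAMC1 (3.67e-08), 1.99 for ITGAV (2.28e-11) and 1.89 for ITGB1 (2.06e-12).

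At the same dose of 4 µM, SKMEL28 lay above A375 by 3.10 for ITGA7 (4.54e-17), AU565 above A375 by 4.48 for ITGA10 (0.000312, on 1 count in untreated AU565 and 11 treated, a ratio of 15.2 with a 95% interval of 2.21 to 654) and 1.50 for ITGA9 (1.07e-06), and AU565 above SKMEL28 by 1.49 for LAMB1 (1.65e-14). For LAMA4 the fitted difference of SKMEL28 over AU565 was 4.77 (0.0161), but treated AU565 had no counts against 6 untreated, so its size depends on the prior count and the fall in AU565 is known only as at least 1.45-fold. That call was lost without untreated replicate 1 of AU565 (0.27) or either treated replicate (0.072 and 0.115). For LAMA3, 94T778 lay above AU565 by 1.04 (0.00124), with 10 and 4 µM.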

How the results depend on the processing

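Most results kept their direction and their side of the threshold: this held for 1495 of 1551 recomputed values of 119 single results. LAMA1 in SKBR3 was 0 without untreated replicate 2 and -6.07 without untreated replicate 1, since all its counts there lie in the former library. Of the counts of called members, those lower in SKBR3 (5) fell to 2 with DESeq2 and to 1 with only the 4 libraries of that line, and ranged from 1 to 5 with 1 library left out, lowest without untreated replicate 2. With 1 library left out, members higher in A375 (3) ranged from 1 to 2, members lower in AU565 (8) from 5 to 8, response differences between A375 and AU565 (20) from 11 to 19, and untreated differences between SKBR3 and AU565 (14) from 9 to 13. In that order the lowest value came without torkinib replicate 1 of A375, untreated replicate 1 of AU565, torkinib replicate 2 of AU565 and untreated replicate 1 of AU565. Every other count of called members stayed within 1.5 times its value in each alternative run. Same-numbered libraries did not deviate together (correlations of -0.0551 to 0.0676 within lines), and the main model did not pair them. With 2 libraries a group, these correlations cannot show whether same-numbered libraries shared a culture or a batch. With the replicate number as a block, counts were 9 higher and 8 lower in 94T778, 3 and 17 in A375, and 17 members differed in response between A375 and SKMEL28 against 19. Members under 5 CPM rest on few counts, and small differences there could not be seen at this depth.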

Other observations

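FN1 and TNC encode fibronectin, the ligand of the ITGA5 receptor, and tenascin C, a matrix protein that integrins also bind. They lie outside the naming rule for partner genes and were chosen after their values were seen. Levels by library are not given for FN1 and TNC, and their values were not recomputed with 1 library left out. Whether the values with a larger SE rest on few counts or on uneven libraries was not tested. FN1 was lower with torkinib in A375 (log2 fold change -4.20, SE 0.49, edgeR adjusted p = 6.93e-09), AU565 (log2 fold change -2.61, SE 0.53, edgeR adjusted p = 6.26e-05), SKMEL28 (log2 fold change -1.39, SE 0.36, edgeR adjusted p = 0.00179) and 94T778 (log2 fold change -0.87, SE 0.36, edgeR adjusted p = 0.0435). In SKBR3 its log2 fold change was 0.59, which did not pass the test (edgeR adjusted p = 0.248). TNC was lower in SKBR3 (log2 fold change -3.40, SE 0.73, edgeR adjusted p = 0.000154), SKMEL28 (log2 fold change -3.12, SE 0.089, edgeR adjusted p = 1.52e-25), 94T778 (log2 fold change -1.58, SE 0.085, edgeR adjusted p = 7.98e-18) and A375 (log2 fold change -0.48, SE 0.082, edgeR adjusted p = 9.2e-06), with -0.019 in AU565 (edgeR adjusted p = 1).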
